A study of Drosophila melanogaster with 6 samples.

Results

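The 8 genes described here encode secreted proteins of the trypsin and chymotrypsin fold: the Jonah genes Jon99Fi, Jon99Ci, Jon65Ai and Jon65Aii, the trypsin-type genes iotaTry and Ser8, and the genes CG3088 and CG8329. They were taken by name from the authors' deposited table of changed probe sets, which names 251 genes, and each has 1 probe set there. The intensities of those 8 probe sets were read among 18769 tested on each array. iotaTry was found by its number CG7754, because the symbol in the table has lost its Greek letter. The authors chose that table on these same arrays, so it was settled in advance that each of the 8 genes would differ between the groups, and the differences below are a description and not independent evidence of a change.

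The data are probe set intensities from total RNA of whole adult Drosophila melanogaster kept for 7 days as adults on a standard fly diet, hybridised to 6 Affymetrix arrays. The labels give 3 arrays of the DHR96 mutant and 3 of Canton S, a wild-type strain, called genetically matched in the series' design text. The allele, the sex of the flies, the number of flies pooled per sample and whether replicates are separate collections of animals are not stated in the labels, so a p-value here reflects the spread among these 6 samples, part or all of which may be technical. DHR96 is an older name of Hr96, a nuclear receptor known from work on fly lipid and cholesterol metabolism.

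Serine proteases of this fold cut peptide bonds with a serine in a catalytic triad and are usually made as inactive precursors. Trypsins cut after lysine or arginine, chymotrypsins after large hydrophobic residues and elastases after small ones. In flies the Jonah genes form a large family, many of them in clusters on the chromosomes, that is known for expression in the midgut of larvae and adults, where such enzymes digest dietary protein. The arrays held RNA of whole animals, so the tissue of origin was not measured, and fewer cells that make a transcript and less of it per cell cannot be told apart.

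All values are linear intensities normalized between arrays by the authors, and a level is compared only between arrays for the same probe set. Median readings per array were 470.4 to 484.2, and the dimmest reading of each array was 97.2 to 103.4. The lowest of the 48 readings of the 8 genes was 438 (Ser8 in Canton S) and the highest 8639 (Jon99Ci in Canton S), so all stood well above the lowest readings. The probe set of the targeted gene Hr96 was not reduced: it read 977, 985 and 928 in the arrays labelled DHR96 mutant, against 527, 498 and 546 in Canton S, so that it does not check the labels and every direction below rests on them. The Dap 3' poly-A spike-in control read 473 and 519 in DHR96 mutant replicates 2 and 3. It read 1217 in DHR96 mutant replicate 1 and between 1007 and 1208 in Canton S, and the protease differences are also given with replicates 2 and 3 as a separate block.

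In the arrays labelled DHR96 mutant, 7 of the 8 protease genes fell and Ser8 rose. The falls ran from 1.54-fold for Jon99Ci to 2.09-fold for CG8329, and the rise of Ser8 was 1.65-fold. For all 8 genes the 3 mutant readings lay outside the range of the 3 Canton S readings, which was so for 30.9% of all probe sets tested. All 8 had a limma adjusted p under 0.05, a threshold that 6.96% of all probe sets passed, 3.67% as lower and 3.29% as higher. Because the table was chosen on this contrast, nothing is read from the 8 of 8. The median log2 difference of the 8 genes was -0.72, beside -0.0015 over all probe sets tested.

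**Figure D1:**
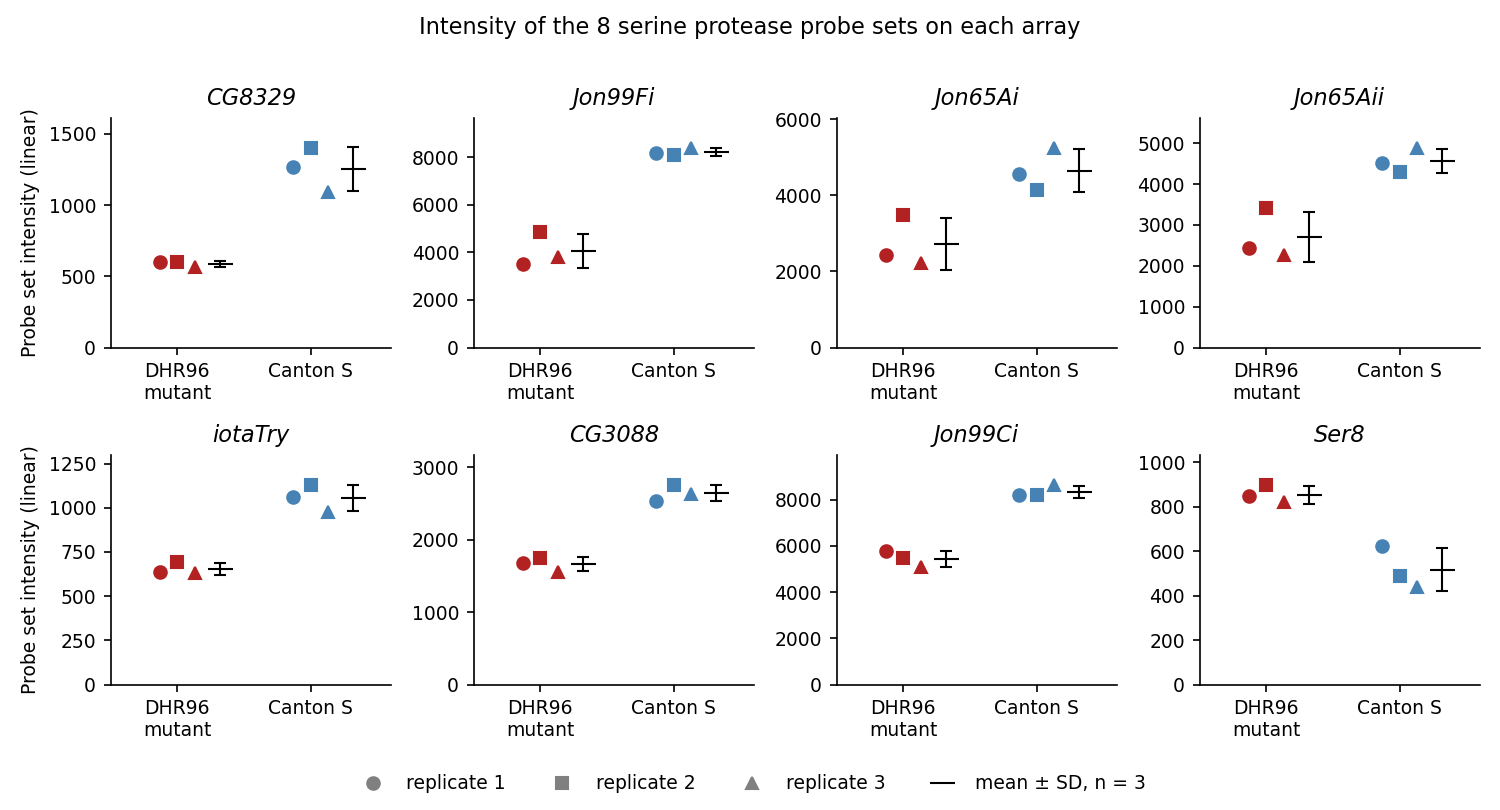
Linear intensity of the 8 probe sets on each array, with DHR96 mutant arrays on the left of each panel and Canton S arrays on the right; symbols mark the replicate and bars the mean ± SD (n = 3). Every mutant reading is below every Canton S reading for 7 genes, and above for Ser8; the mutant readings of Jon65Ai run from 2217 to 3499.

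Of the Jonah genes, Jon99Fi had the largest difference. Its gene table entry carries both a serine protease name (SP181) and a serine protease homologue name (SPH181), a term for proteins of this fold without the full catalytic triad. Jon99Fi read 3523, 4877 and 3802 in the arrays labelled DHR96 mutant, against 8163, 8082 and 8398 in Canton S. The Canton S readings lay close together, while DHR96 mutant replicate 2 stood above the other two mutant arrays, and the groups did not overlap. The means were 4067 ± 715 in the mutant and 8214 ± 164 in Canton S (SD, n = 3 each). The log2 difference was -1.03 (SE 0.106, 95% interval -1.27 to -0.78, limma adjusted p = 0.00393).

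Jon99Ci, to which the deposited table gives elastase activity and digestion, had tighter readings. It read 5756, 5457.5 and 5078 in the arrays labelled DHR96 mutant, against 8207, 8179 and 8639 in Canton S. All 3 mutant arrays lay below the lowest Canton S array by more than either group's SD, with means of 5430.4 ± 339.8 and 8342 ± 258 (SD, n = 3 each). The log2 difference of -0.62 was the smallest of the 7 falls, and with an SE of 0.0488 it had the narrowest interval, -0.73 to -0.51 (limma adjusted p = 0.00131).

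Jon65Ai and Jon65Aii lie next to each other in gene order and gave nearly the same readings in relation to their own means. Jon65Ai read 2433, 3499 and 2217 in the arrays labelled DHR96 mutant, against 4556, 4132 and 5255 in Canton S. Jon65Aii read 2439, 3404 and 2269.7 in the mutant, against 4504, 4294 and 4888 in Canton S. In both genes DHR96 mutant replicate 2 was much the highest of the mutant arrays and came nearest to Canton S, without overlap.

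The log2 difference of Jon65Ai was -0.79 (SE 0.164, limma adjusted p = 0.0340) and that of Jon65Aii -0.77 (SE 0.138, limma adjusted p = 0.0221). These are the widest intervals of the 8 genes, -1.17 to -0.41 and -1.09 to -0.45. Leaving out 1 array at a time, Jon65Ai passed the threshold in 1 of the 6 fits (without DHR96 mutant replicate 2, highest limma adjusted p 0.115 over the 6) and Jon65Aii in 2 (highest 0.0861). Without DHR96 mutant replicate 2 the log2 difference of Jon65Ai was -0.99 and that of Jon65Aii -0.95.

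The 4 Jonah members have close relatives, and the probe sequences were not available for this work. Jon99Fi stands beside Jon99Fii in gene order, Jon99Ci beside Jon99Cii and Jon99Ciii, and Jon65Aii beside Jon65Aiii. All 8 probe set names end in plain _at, and none carries the _s_at or _x_at ending that marks probe sets shared between genes. The names alone do not show whether close copies add signal to the members' probe sets, and this was not tested.

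The trypsin-type genes moved in opposite directions. iotaTry belongs to a cluster of trypsin genes and lies near deltaTry in gene order. It read 639, 695 and 634 in the arrays labelled DHR96 mutant, against 1059, 1130.0 and 979 in Canton S. Each group was tight, with means of 656 ± 33.9 in the mutant and 1056 ± 75.7 in Canton S (SD, n = 3 each), and the gap between the groups was larger than either range. The log2 difference was -0.67 (SE 0.0624, 95% interval -0.82 to -0.53, limma adjusted p = 0.00244).

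Ser8, to which the deposited table gives trypsin activity, was the 1 gene of the 8 that was higher in the mutant. It read 847, 899 and 820.0 in the arrays labelled DHR96 mutant, against 625, 487 and 438 in Canton S. Here the spread lay in Canton S, where replicate 1 stood above the other two, and the coefficient of variation was 4.72% in the mutant and 18.7% in Canton S. The log2 difference was 0.72 (SE 0.116, 95% interval 0.45 to 0.99, limma adjusted p = 0.0164). Without Canton S replicate 1 it was 0.86, and without DHR96 mutant replicate 1 the call was lost (limma adjusted p = 0.0543).

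CG8329 and CG3088 keep their numbers as gene symbols. The deposited table gives chymotrypsin activity to CG8329 and serine-type endopeptidase activity to CG3088, while in the gene table the synonym SP170 of CG8329 is a serine protease name and SPH188 of CG3088 a serine protease homologue name. The pair is separated by 6 protein-coding genes in gene order, and CG8329 is followed by CG18179 and CG18180, both with serine protease synonyms in the gene table.

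CG8329 read 599.9, 602 and 565 in the arrays labelled DHR96 mutant, against 1270.1, 1402 and 1092 in Canton S. The mutant readings hardly varied (589 ± 20.7), the Canton S readings varied more (1255 ± 155, SD, n = 3 each), and the groups were far apart. At -1.06 its log2 difference was the largest fall of the 8 genes (SE 0.0848, limma adjusted p = 0.00137). CG3088 read 1676, 1752 and 1559 in the mutant, against 2541, 2760.3 and 2631 in Canton S, and its log2 difference was -0.67 (SE 0.0517, limma adjusted p = 0.00126).

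**Figure D2:**
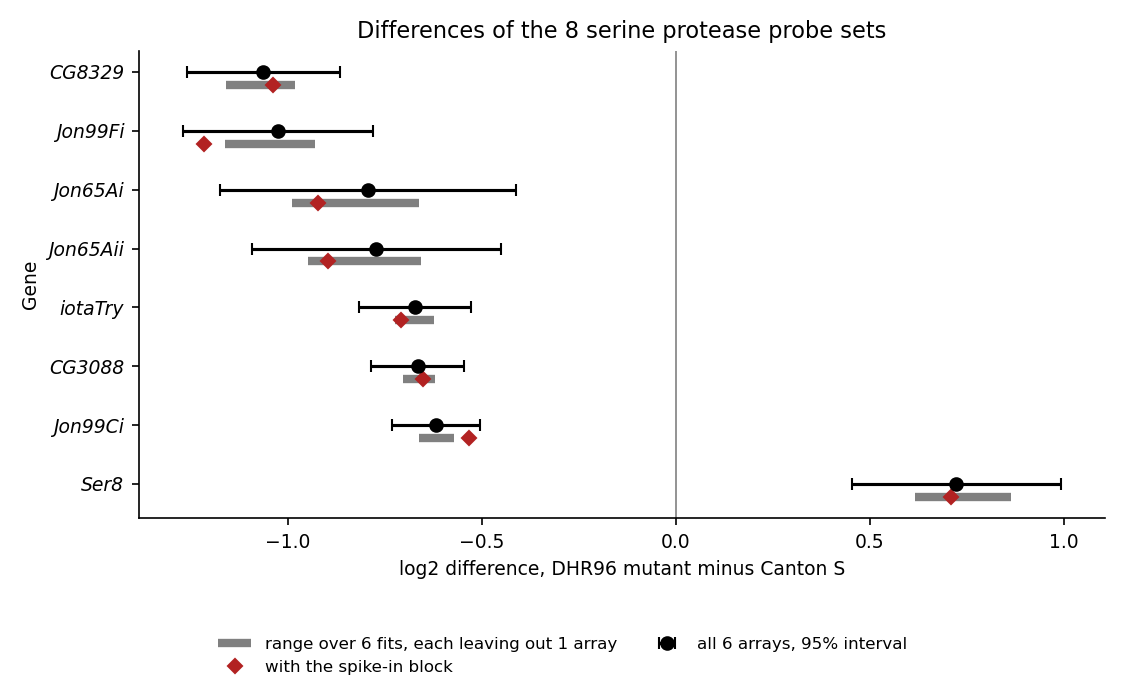
Log2 difference of each gene, DHR96 mutant minus Canton S, with its 95% interval (black), the range over 6 fits that each leave out 1 array (grey bar) and the value with the spike-in block (red diamond). The block moves Jon99Fi to -1.22 and Jon99Ci to -0.53, and all 8 values keep their sign.

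In the authors' deposited table the 8 genes have signed folds between -2.13 (CG8329) and -1.54 (Jon99Ci) for the falls and of 1.65 for Ser8. The q-value in the authors' deposited table was 1.51% for Jon65Ai and 0.649% for Jon65Aii, and it is listed as 0 for the others. The smallest fold in that table was 1.301 in size and its largest q-value 2.18%, so the 8 genes were not at its lower edge in fold. By the size of the fold in the authors' deposited table, CG8329 and Jon99Fi ranked 11 and 13 among 80 genes listed as lower, and Ser8 ranked 50 among 171 listed as higher.

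With DHR96 mutant replicates 2 and 3 as a separate spike-in block, the difference between strains rests on DHR96 mutant replicate 1 alone, set against all 3 of Canton S. In that fit 2 of the 8 genes passed, against 0.165% of all probe sets. The log2 difference was then -1.22 for Jon99Fi (limma adjusted p = 0.0255) and -0.53 for Jon99Ci (limma adjusted p = 0.0402). CG3088, CG8329 and iotaTry differed by -0.65, -1.04 and -0.71 with limma adjusted p-values of 0.0568, 0.0583 and 0.0686. Jon65Ai, Jon65Aii and Ser8 differed by -0.92, -0.90 and 0.71 (limma adjusted p = 0.286, 0.213 and 0.265).

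Among the mutant arrays, 7 of the 8 genes read highest in DHR96 mutant replicate 2 and 7 read lowest in replicate 3. Jon99Ci was the exception at the high end, highest in replicate 1, and Jon99Fi at the low end, lowest in replicate 1. These arrays also had the highest and the lowest median intensity of the 6, 484.2 and 470.4. After each array was centred on its median, a step chosen after seeing the data, 6 genes were highest in replicate 2 and 6 lowest in replicate 3. The share of all probe sets with this order was not counted, so the counts are not read as a trait of these genes.

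The size of this spread set Jon99Fi, Jon65Ai and Jon65Aii apart from the rest. In DHR96 mutant replicate 2 they stood 0.27, 0.39 and 0.35 above their own mutant mean on the log2 scale, while the other 5 genes stood between 0.0090 and 0.083 above it. As a description over the 6 arrays, the deviations from the group means correlated at r = 0.985 between Jon65Ai and Jon65Aii, 0.912 between Jon99Fi and Jon65Aii and 0.862 between Jon99Fi and Jon65Ai. CG8329 and iotaTry formed another close pair, at r = 0.882, both being highest within Canton S in replicate 2 and lowest in replicate 3. Over all 28 pairs r ran from -0.26 to 0.985 with a median of 0.37. Each pair shares its 6 arrays and their scaling. Jon65Ai and Jon65Aii are also neighbouring Jonah genes, and signal shared between their probe sets was not tested.

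**Figure D3:**
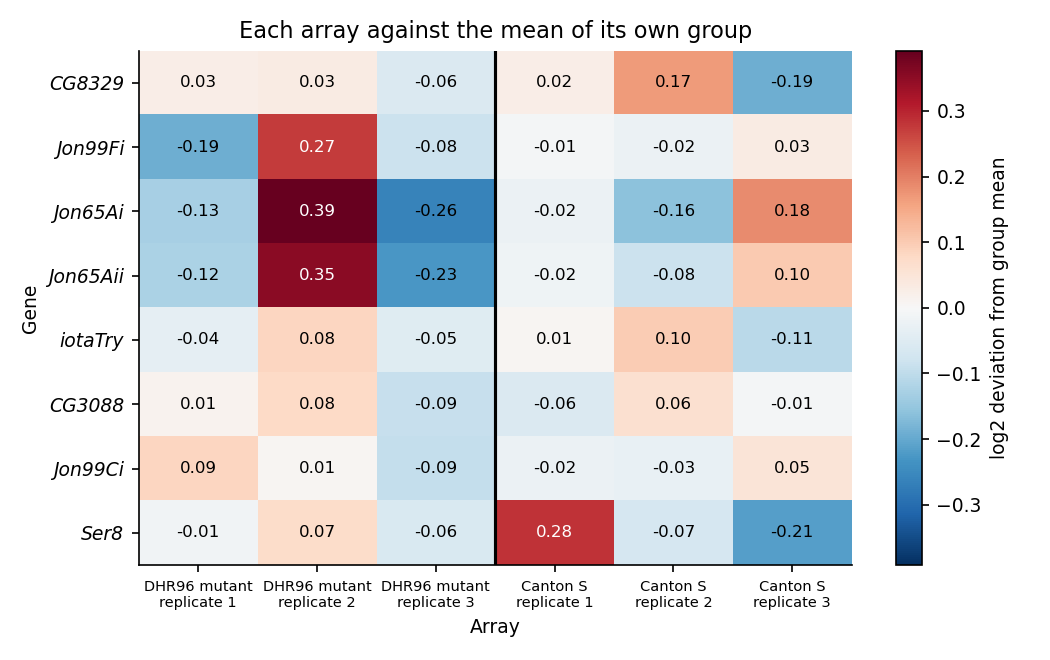
Log2 deviation of each reading from the mean of its own group, with DHR96 mutant arrays left of the line and Canton S arrays right of it. DHR96 mutant replicate 2 is high for Jon99Fi (0.27), Jon65Ai (0.39) and Jon65Aii (0.35), and Canton S replicate 1 is high for Ser8 (0.28).

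The profile of a gene, its log2 values relative to its Canton S mean, was averaged over the 4 Jonah members and set against the 243 other genes of the deposited table. CG12057, a gene with no ontology term in that table, was nearest, at a root mean square difference of 0.058 over the 6 arrays, where the median gene stood at 0.908. Most genes of the table were higher in the mutant, which places the median gene far away. CG12057 read 3109.6, 4472 and 3015 in the arrays labelled DHR96 mutant, against 5868, 5651 and 6315 in Canton S. Like Jon65Ai, it was highest among the mutant arrays in replicate 2, but it was picked on these same readings, so this adds nothing to the ranking. Its log2 difference was -0.77 (SE 0.138, limma adjusted p = 0.0222).

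CG8661 followed at 0.104, then the lipase gene CG31091 at 0.161, Mdr50, which encodes a multidrug transporter of the ABC type, at 0.169, and CG32633 at 0.174. Their log2 differences lay between -0.85 (CG31091) and -0.60 (Mdr50). The 3 nearest to Ser8, whose order changed with the pseudocount, were MFS12, listed in the table as a phosphate symporter (0.0848), CG7031 (0.0866) and Gasp, which encodes a chitin-binding protein (0.103). MFS12 and Ser8 were both highest within Canton S in replicate 1, at 0.24 and 0.28 above the Canton S mean on the log2 scale. MFS12 was picked for its nearness over these same arrays, so this is not a separate likeness.

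**Figure D4:**
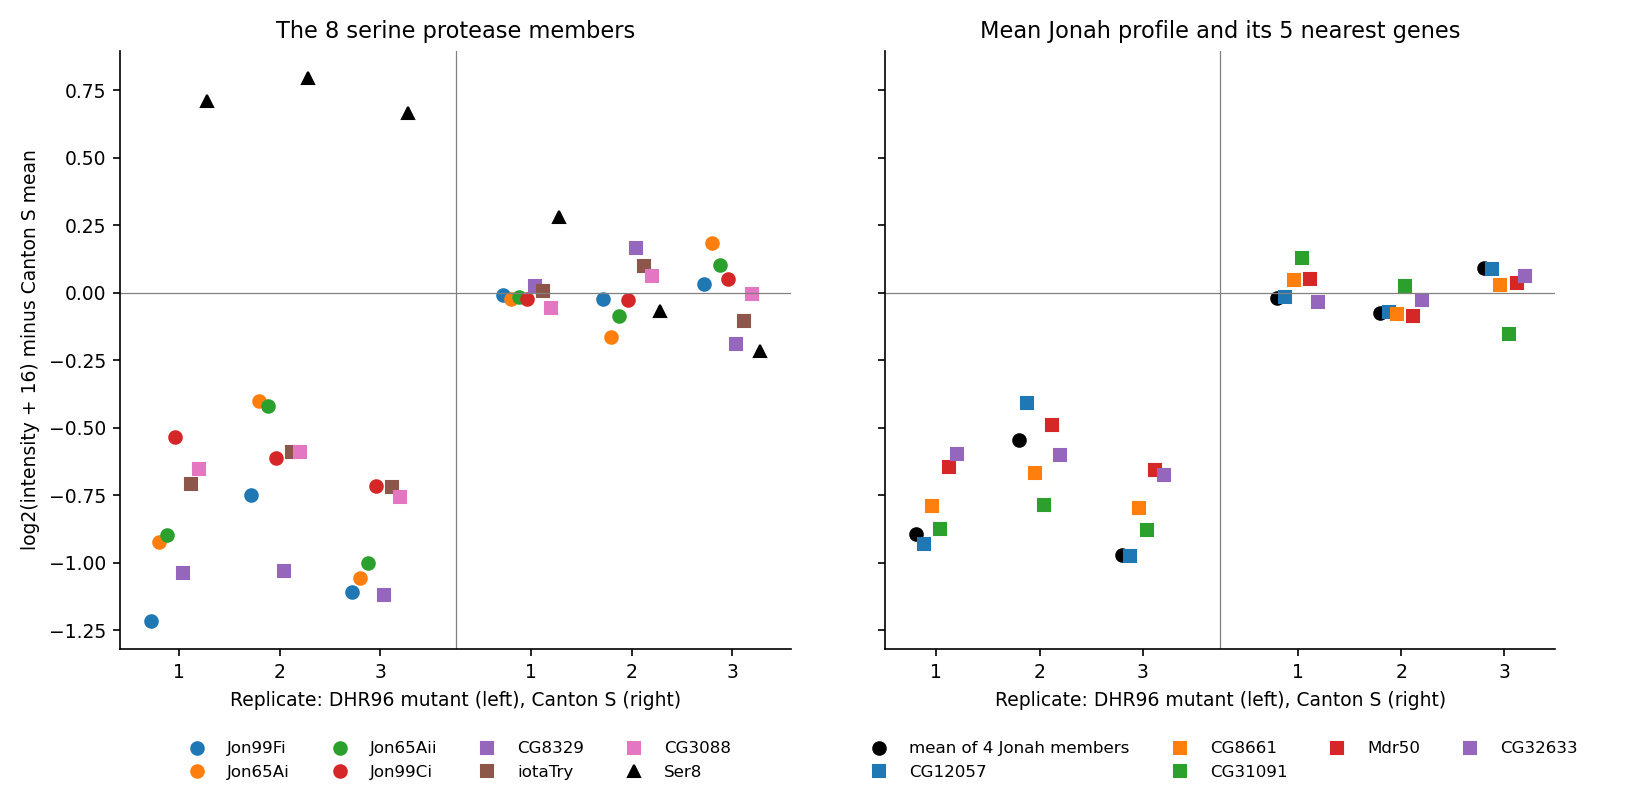
Log2(intensity + 16) relative to the Canton S mean on each array, DHR96 mutant left and Canton S right of the line, for the 8 genes (left panel) and for the mean of the 4 Jonah members with its 5 nearest genes (right panel). The mean Jonah profile stands at -0.89, -0.55 and -0.97 in the mutant replicates, and CG12057 at -0.93, -0.41 and -0.97.

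Other genes of digestion and of protease control were taken from 6 lists that hold 206 genes, of which the deposited table names 17. It names 0 of 12 other Jonah genes and 0 of 53 other trypsin and chymotrypsin genes, which says only that the authors' selection did not list them, as no table naming every probe set was used here. Both genes that the table names from the list of other peptidases fell, with smaller differences than any of the 7 proteases. Peptidase genes of the table outside that list also rose, among them AdamTS-A and Nna1, with log2 differences of 0.42 and 0.40. The aminopeptidase gene CG31343 read 4313, 4409.5 and 4011 in the arrays labelled DHR96 mutant, against 5812, 5789 and 5675 in Canton S, a log2 difference of -0.44 (limma adjusted p = 0.00216). CG7631, of the astacin metalloproteases, read 376, 398 and 353 in the mutant, against 498, 504 and 504 in Canton S, a log2 difference of -0.41 (limma adjusted p = 0.00821).

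Of 12 other enzyme genes on the digestive list, 10 fell and 2 rose, with a median log2 difference of -0.74, where 3.67% of all probe sets passed as lower and 3.29% as higher. The authors selected these genes on this same contrast, so the counts are not independent evidence of direction. Of the 10 falls, 5 belong to the lysosomal alpha-mannosidase family (LManI, LManII, LManIII, LManV and LManVI). LManV, LManVI, LManIII and the lipase gene mag fell further than any protease, at -2.54, -2.10, -1.67 and -2.00. The chitinase gene Cht9 and the alpha-glucosidase gene Mal-B2 also fell, with log2 differences of -0.53 and -0.64, but neither passed with the replicate number as a block (limma adjusted p = 0.0634 and 0.0560). Cht9 also did not pass without Canton S replicate 1 (limma adjusted p = 0.0563).

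The 2 rises were those of the alpha-glucosidase genes tobi and Mal-B1, with log2 differences of 0.48 and 0.56 (limma adjusted p = 0.0302 and 0.0254). With 1 array left out at a time, each passed in 1 of 6 fits, tobi without DHR96 mutant replicate 2 and Mal-B1 without DHR96 mutant replicate 1, and the highest limma adjusted p was 0.0747 for tobi and 0.0703 for Mal-B1. Mal-B1 also did not pass with the replicate number as a block (limma adjusted p = 0.0938). Of genes for the peritrophic matrix, the chitin-based lining of the midgut, and of midgut regulators, the table names Peritrophin-A. Its probe set carries the _s_at ending, so its signal may be shared with another gene. It read 1217, 1271 and 1326 in the arrays labelled DHR96 mutant, against 818, 888 and 741 in Canton S, a rise with a log2 difference of 0.63 (limma adjusted p = 0.00441).

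Of 35 protease inhibitor genes the table names a pair of serpins, the family that traps serine proteases. Acp76A, a serpin gene of the male accessory gland, rose, with a log2 difference of 0.43 (limma adjusted p = 0.00676). Spn55B read 1166, 960.2 and 1148 in the arrays labelled DHR96 mutant, against 1411, 1554 and 2145 in Canton S. Its groups did not overlap, Canton S replicate 3 stood far above the rest, and the difference of -0.62 did not pass (limma adjusted p = 0.0504). With the spike-in block, 6 of the 17 listed genes passed, all of them lower: LManII, LManIII, LManV, LManVI, mag and sxe2.

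**Figure D5:**
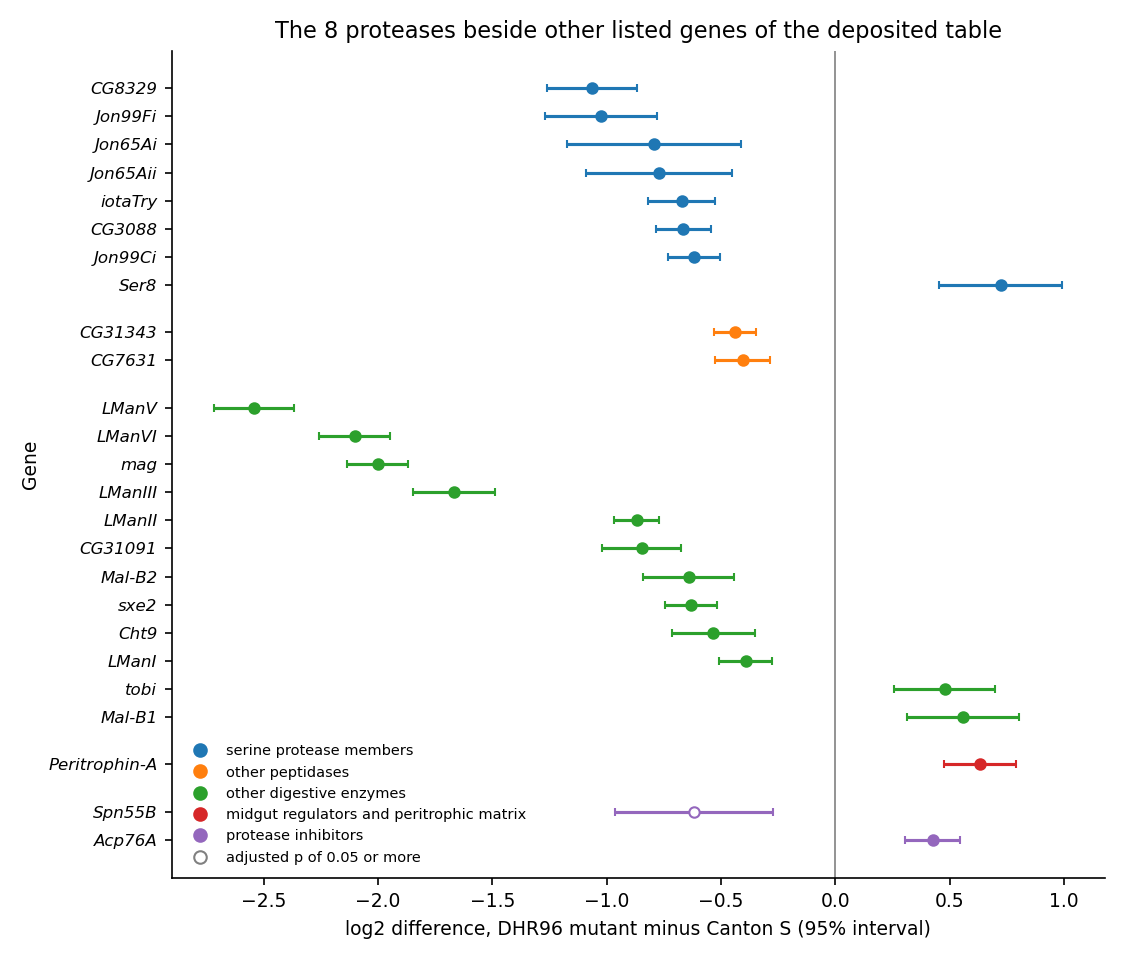
Log2 difference with its 95% interval, DHR96 mutant minus Canton S, for the 8 proteases and the 17 other listed genes of the deposited table, coloured by list. The 7 lower proteases lie between -1.06 and -0.62, LManV lies at -2.54, and Spn55B (open symbol) did not pass.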

How the data were processed

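The deposited series values are linear intensities of 18952 probe sets on 6 arrays. The authors had normalized these intensities between arrays, as their nearly equal medians show; MAS5 is named, without a role, per the submitters' processing notes, and the background correction is not stated there. The authors' deposited table holds a SAM score with the log2 difference and the spread it was made from, a fold with a sign, and a q-value as a percent, per the file headers. That log2 difference equalled the mutant minus the Canton S mean log2 intensity within 2.21e-10 for the 8 genes.

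After 183 manufacturer's controls were set aside, 18769 probe sets entered a model of log2(intensity + 16) on group alone, unfiltered, in limma 3.58.1 (R 4.3.3; lmFit, eBayes with trend). Two-sided p-values were adjusted by Benjamini-Hochberg over all 18769, with 0.05 as the threshold. The fit was tested on simulated data. Folds are back-transformed from log2(intensity + 16), which understates the change of dim probe sets; the number of arrays limits the precision. Genes were named from the deposited table through the Release 6 gene table (243 of 251 matched), used for names and gene order alone. The text names the 8 members, the table's genes on the 6 lists, and the 5 and 3 genes nearest to the Jonah and Ser8 profiles by root mean square difference. The members and lists were chosen with earlier results of these data known. Alternatives were median centring, quantile normalization, pseudocounts of 1 and 64, leaving out the dimmest 25% of probe sets, other variance models, blocks for replicate number and spike-in group (DHR96 mutant replicates 2 and 3 against the other 4 arrays), a threshold of 0.01, and each array left out.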

Additional observations from a re-analysis of the deposited data

How the results depend on the processing

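All 8 genes kept their direction under all 15 alternative fits. All 8 also passed the limma threshold of 0.05 after median centring, quantile normalization, with either pseudocount, without the dimmest 25% of probe sets, without an intensity trend and without DHR96 mutant replicate 2. Robust variances and the replicate block each left 6 (5 lower, 1 higher), Jon65Ai and Jon65Aii being lost. Robust variances called more probe sets in all, 1466 against 1306 in the main fit. The totals were 1037 after median centring, 1093 after quantile normalization, and 1316 and 1297 with pseudocounts of 1 and 64. Without the dimmest 25% of probe sets the total was 1548. With 1 array left out the lower genes past the threshold numbered 5 to 7 and the higher ones 0 to 1, the 0 without DHR96 mutant replicate 1. A threshold of 0.01 left 5 lower and 0 higher. The spike-in block fit rests on 1 mutant array and gave log2 differences from -1.22 for Jon99Fi to 0.71 for Ser8. Why fewer genes passed in that fit was not tested. Over all probe sets the number past the threshold was 1306, and it was 813 without an intensity trend, 240 with the replicate block, 31 with the spike-in block, 196 at a threshold of 0.01 and 287 to 803 with 1 array left out. Deviations from the group means correlated at r = 0.19, -0.23 and -0.24 between same-numbered arrays of the groups. Between differently numbered arrays r ran from -0.21 to 0.30, so same-numbered arrays did not stand out. With 3 arrays per group this cannot settle whether same-numbered samples were collected or handled together. With a pseudocount of 64 the genes nearest to the Jonah and Ser8 profiles moved by less than their spread between replicates, but their order changed: Mdr50 ranked 6, and for Ser8 CG7031 came first (0.0715), Gasp next (0.0896) and MFS12 after them (0.0948). Detection calls were not used here, so signal over background is known only from the lowest readings.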

Other observations

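Of the 251 genes of the authors' deposited table, 18 carry its proteolysis term: the 8 described above and 10 others, of which 3 are lower and 7 higher in the arrays labelled DHR96 mutant. The 3 lower ones are CG31343, CG7631 and the serpin gene Spn55B, the last of which did not pass the test (limma adjusted p = 0.0504). The difference of 1.63 for Lsp2 on the log2 scale was the largest of the 10 (limma adjusted p = 0.00307). Lsp2 encodes a larval serum storage protein, and the table also gives it carboxypeptidase A activity by electronic annotation. Another 4 of the higher genes encode subunits of the proteasome regulatory particle, the cap that feeds ubiquitin-tagged proteins into the proteasome. Rpn11, Rpn2, Rpt3 and Rpn3 rose, with log2 differences of 0.41, 0.40, 0.39 and 0.38 (limma adjusted p between 0.0105 and 0.0238). The metalloprotease gene AdamTS-A rose by 0.42 (limma adjusted p = 0.0120) and the carboxypeptidase gene Nna1 by 0.40 (limma adjusted p = 0.0168). These genes were picked for the shared term after their values were seen, from a table chosen on the same arrays.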
